A study of Mus musculus with 44 samples.

Results

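Ovarian follicles of wild-type CD-1 mice, an outbred laboratory strain, were treated with PFNA (perfluorononanoic acid, a persistent fluorinated surfactant of the PFAS class) or with the solvent DMSO while they matured, and the RNA of whole follicles was sequenced. The 10 PFNA libraries of the maturation window are described here by whether they held oocyte transcripts. PFNA replicates 1, 2 and 10 (3 libraries, called oocyte-retaining) are set beside PFNA replicates 3 to 9 (7 libraries, called oocyte-poor), with the 11 DMSO libraries of the same window as the reference. These 21 libraries belong to a series of 44 samples. The labels give no age, dose, time, number of follicles or number of animals per library. Nothing in them says that libraries came from separate cultures or animals, so p-values measure the spread between these libraries, which may be technical.

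The members of each class were chosen by measured values, the summed level of 8 oocyte genes (Zp1, Zp2, Zp3, Gdf9, Bmp15, Oosp1, Nlrp5 and Ooep) in each library. All levels are TPM, a share of the library's RNA corrected for transcript length. The sum ran from 108 to 165 TPM in the controls, with a median of 141 TPM. It was 113 TPM in PFNA replicate 1, 103 TPM in replicate 2 and 296 TPM in replicate 10. In replicates 3 to 9 it ran from 0.268 to 2.16 TPM. The libraries nearest the boundary were replicate 2 at 103 TPM and replicate 3 at 2.16 TPM, so by this sum no library lay between the classes. By the sum of 40 other oocyte genes the classes were not so parted, with 219 TPM in replicate 2 and 197 TPM in replicate 3. Levels of these genes are given as a description, and the classes were compared with each other by no test.

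An ovarian follicle is an oocyte enclosed by granulosa cells, with theca cells outside the basement membrane. The oocyte secretes GDF9 and BMP15, which act on granulosa cells and are known to support their division, their glycolysis and cholesterol synthesis, and the cumulus character of those nearest the oocyte. PFNA and related fatty-acid-like compounds are known to activate PPAR receptors, which switch on genes of fatty acid oxidation and lipid storage. In the GENCODE M21 annotation of GRCm38, Zp3 lies at chr5:135980099-135988624, Gdf9 at chr11:53431023-53437904 and Bmp15 at chrX:6314107-6320721. RNA came from many cells at once, so fewer cells of a type and less RNA per cell cannot be told apart.

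Transcripts of the egg coat, whose genes helped to set the classes, were lower in the oocyte-poor libraries than in any control. Zp3, the sperm-binding protein of the zona pellucida, had 10.7 to 25.8 TPM in the controls (median 12.5). It had 10.1 TPM in replicate 1, 8.05 in replicate 2 and 13.4 in replicate 10, and 0 to 0.230 TPM in replicates 3 to 9. Replicates 3 to 9 were thus far below every control, while replicates 1 and 2 were just under the lowest control and replicate 10 was among them. Zp1, another zona protein, was an exception within the retaining class. It had 5.84 TPM in replicate 1 and 9.60 in replicate 10, within the controls (5.25 to 13.3), but only 0.768 TPM in replicate 2.

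The oocyte growth factors showed the same division, with replicate 10 above the controls. Gdf9 had 32.8 to 49.8 TPM in the controls (median 40.7). It had 33.2 TPM in replicate 1, 25.6 in replicate 2, 93.8 in replicate 10 and 0.180 to 1.57 TPM in replicates 3 to 9. Only traces remained in the oocyte-poor libraries, and replicate 10 held more than any control. Bmp15 had 20.2 to 39.0 TPM in the controls (median 29.1). Its level was 30.3 TPM in replicate 1, 26.5 in replicate 2 and 110.8 in replicate 10, and it was listed at 0 in replicates 3, 4, 5, 7 and 9 and at no more than 0.126 TPM in replicates 6 and 8. Replicates 1 and 2 were therefore within the control range. Ooep, a component of the subcortical maternal complex, had 25.5, 33.1 and 32.4 TPM in replicates 1, 2 and 10, within the controls (20.9 to 43.0), and at most 1.11 TPM in replicates 3 to 9.

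**Figure D1:**
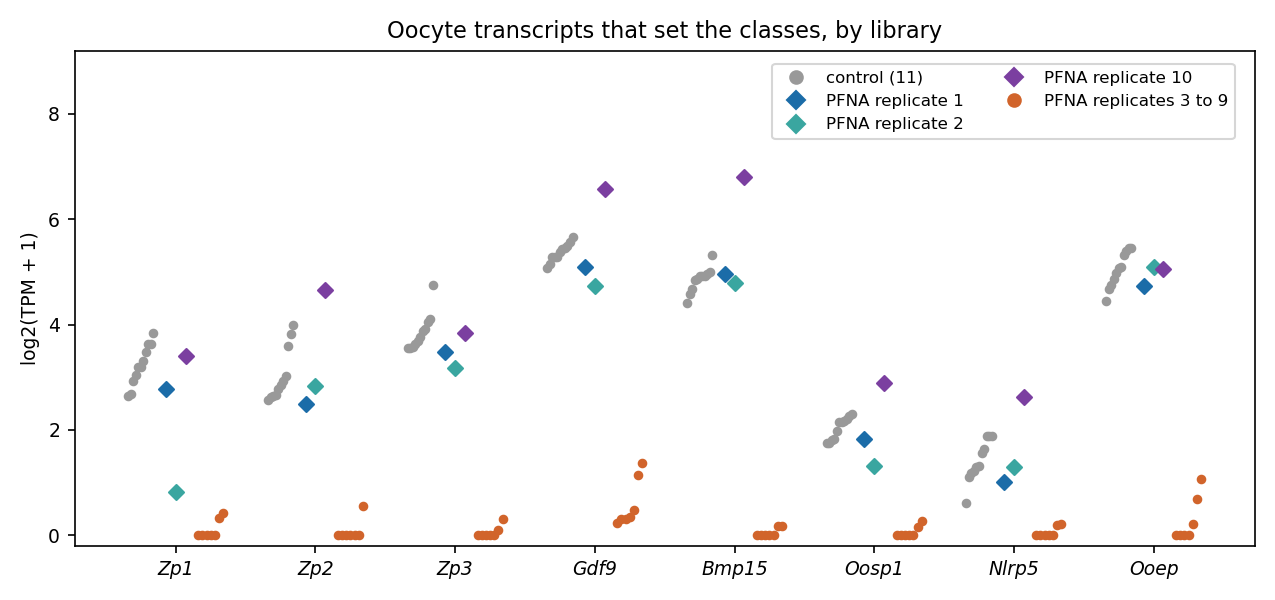
Levels of the 8 oocyte genes that set the classes, as log2(TPM + 1), with 1 point per library (grey, 11 controls; diamonds, PFNA replicates 1, 2 and 10; orange, PFNA replicates 3 to 9). For every gene the orange points lie near 0 and below all controls, and replicate 10 stands above all controls for Zp2, Gdf9, Bmp15, Oosp1 and Nlrp5.

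The start regions of 2 of these genes are shown because the 8 genes were lost together, and oocyte genes such as these are known to be driven by FIGLA, which binds E-boxes (CANNTG), and NOBOX, which binds TAATTG or TAATTA. The RefSeq promoter table of GRCm38.p6 matched 5 of the 8 genes. The 250 bases before the RefSeq start are printed with E-boxes in capitals, for Zp3 at chr5:135979855-135980104 on the plus strand and for Bmp15 at chrX:6320725-6320974 on the minus strand. The last 6 bases of the Zp3 window lie within the gene as GENCODE M21 starts it.
Zp3: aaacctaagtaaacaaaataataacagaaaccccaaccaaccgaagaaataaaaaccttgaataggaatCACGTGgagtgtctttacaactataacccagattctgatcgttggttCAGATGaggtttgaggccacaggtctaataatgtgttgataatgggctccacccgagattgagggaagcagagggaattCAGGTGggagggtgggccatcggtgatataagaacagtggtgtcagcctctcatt
Bmp15: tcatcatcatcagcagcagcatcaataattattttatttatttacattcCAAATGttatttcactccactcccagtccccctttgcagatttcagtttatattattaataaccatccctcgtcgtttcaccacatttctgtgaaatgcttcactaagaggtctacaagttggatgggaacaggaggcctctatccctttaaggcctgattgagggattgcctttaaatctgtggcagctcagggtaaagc
The Zp3 window held 3 E-boxes and no TAATTG or TAATTA, and the Bmp15 window held 1 E-box and 1 TAATTA. Both strands were searched. Of 32851 promoters of the same length, 66.2% held an E-box, 31.8% held at least 2, and 11.3% held TAATTG or TAATTA, so such matches are common and describe the sequence only.

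The label "oocyte transcripts lost" held for the zona and growth factor genes in every one of replicates 3 to 9, but for other oocyte genes it held only in part. Of 42 symbols listed for other oocyte genes, 40 were in the table (H1foo and Juno were not). Of these, 30 had a mean of at least 1 TPM and were tested. Lower levels with PFNA were called for 26 of these 30 by limma (adjusted p under 0.05 over all genes tested), against 16.1% of all genes called lower. Because the oocyte genes move with those that cut the classes, this count is a description of the loss and supports nothing further. The sum of the 40 genes was 385 to 646 TPM in the controls. It was 370 TPM in replicate 1, 219 in replicate 2 and 859 in replicate 10.

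Among replicates 3 to 9 the remainder was unequal. Replicate 3 kept a sum of 197 TPM and replicate 7 kept 120 TPM, whereas the other 5 libraries had 54.1 to 60.4 TPM. Tcl1, an activator of AKT that is abundant in oocytes, had 13.1 TPM in replicate 3, inside the control range of 7.38 to 22.0, and 4.64 TPM in replicate 7. It was listed at 0 in replicates 4, 5, 6, 8 and 9. Bcl2l10, an oocyte-enriched BCL2 family member, had 27.7 TPM in replicate 3 and 9.28 in replicate 7, and no more than 0.428 TPM in the other 5 (controls 28.7 to 63.0). Omt2b had 16.9 and 16.4 TPM in replicates 3 and 7, both within the controls (8.07 to 28.0), and was listed at 0 in the other 5. Thus 2 of the 7 oocyte-poor libraries held part of the oocyte transcripts without zona, Gdf9 or Bmp15 transcripts at control level. These genes were singled out after their values were seen.

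Counted over the 26 genes called lower, 19 were within or above the control range in replicate 1, 23 in replicate 10 and only 4 in replicate 2. The number was 5 in replicate 3 (Obox5, Rfpl4, Tcl1, Oas1d and Omt2b), 1 in replicate 7 and 0 in replicates 4, 5, 6, 8 and 9. Replicate 2 was thus intermediate, with control levels of Bmp15 and Ooep and low levels of most other oocyte genes. Nobox, the oocyte homeobox factor, had 1.66 TPM in it against 2.70 to 9.49 in the controls, and Rfpl4 had 1.62 TPM against 6.81 to 15.8. Some listed genes stayed present in every oocyte-poor library. Tle6, a co-repressor of the subcortical maternal complex, had 5.67 to 15.5 TPM in replicates 3 to 9, 25.6, 25.4 and 23.1 TPM in replicates 1, 2 and 10, and 30.03 to 43.7 TPM in the controls, so all 10 PFNA libraries were below every control. Zbed3 had 25.3 to 50.8 TPM in replicates 3 to 9 against 66.6 to 106.1 in the controls.

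**Figure D2:**
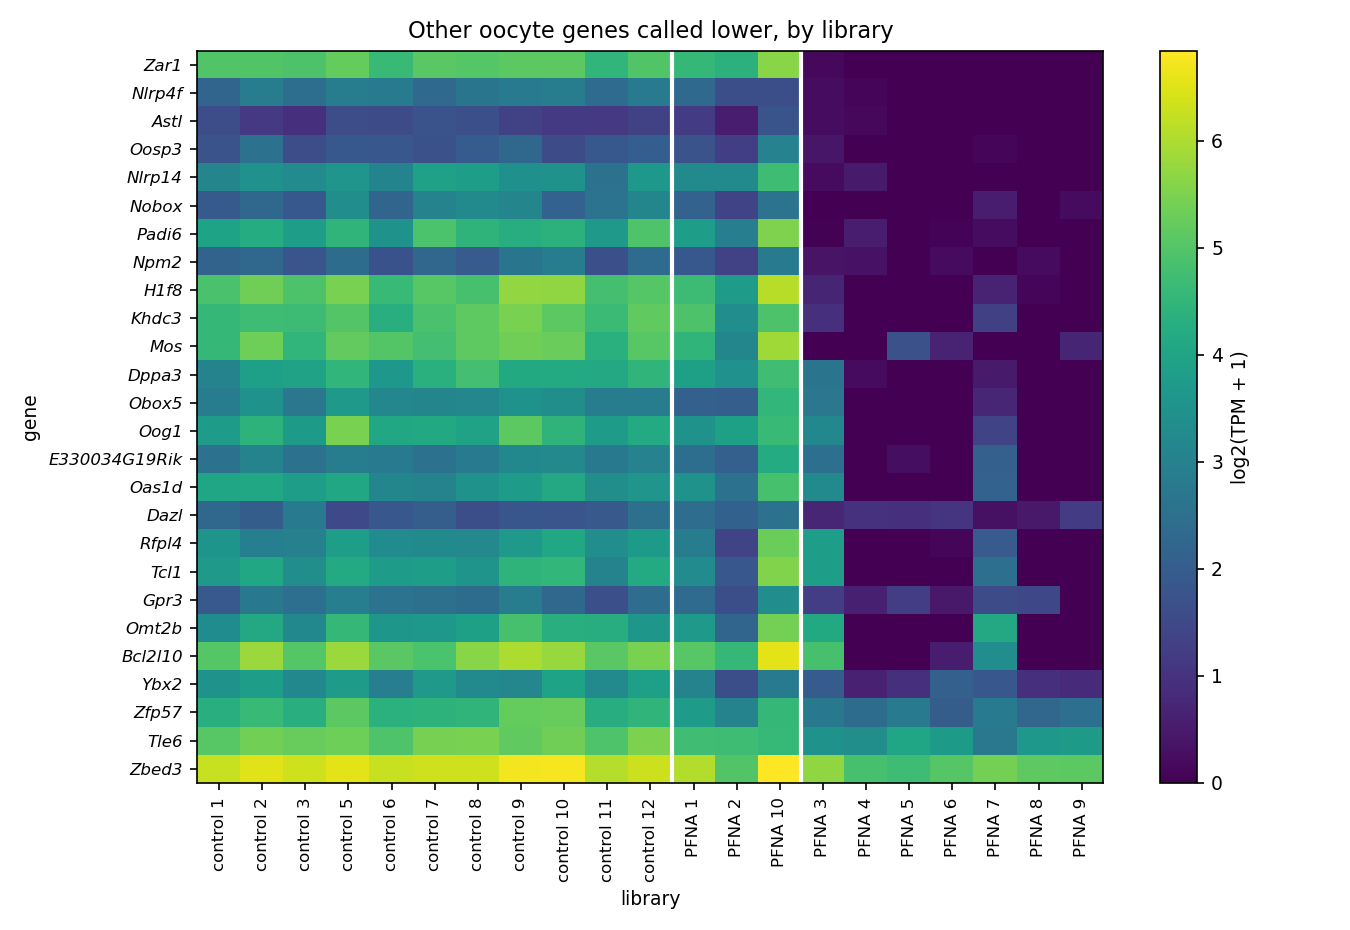
Levels of the 26 other oocyte genes called lower, as log2(TPM + 1) by colour, with genes in rows and the 21 libraries in columns (controls, then PFNA replicates 1, 2 and 10, then 3 to 9, parted by white lines). Replicate 3, and more weakly replicate 7, keep signal in rows such as Tcl1, Omt2b and Bcl2l10, and Tle6 and Zbed3 stay visible in every library.

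The question of which PFNA changes accompany oocyte loss was addressed by placing each PFNA library against the control range, gene by gene. The test is the labelled comparison of 10 PFNA with 11 control libraries, fitted with limma on log2(TPM + 1) over 13712 genes, in which the classes play no part. At 0.05 after adjustment for all genes tested (Benjamini-Hochberg), 4030 genes were called (29.4%). Of them 1824 were higher (13.3% of genes tested) and 2206 lower (16.1%). With TPM rescaled without 9 genes read as mitochondrial-like, whose share of RNA was higher in replicates 3 to 10 (24.2% to 27.2%) than in the controls (17.8% to 23.2%) and was 22.0% and 20.8% in replicates 1 and 2, the split was 2994 higher and 1764 lower. Fold changes on this scale understate the change of low genes. A library is called beyond the controls for a gene when it lies past all 11 of them in the direction of the fold change.

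The oocyte content did not divide the libraries the way the rest of the transcriptome did. Of the 4030 called genes, replicates 3 to 9 were each beyond the controls in 69.5% to 76.6%. Replicate 10, which held the most oocyte RNA, was beyond in 76.8%. Replicate 1 was beyond in 23.9% and replicate 2 in 29.5%. Over all genes tested, the shares were 15.5% in replicate 1, 15.3% in replicate 2, 50.6% in replicate 10 and, in replicates 3 to 9 in order, 35.8%, 37.3%, 34.9%, 34.6%, 41.1%, 34.3% and 35.2%. Replicate 10 thus grouped with the oocyte-poor libraries in most genes that PFNA changed, and replicates 1 and 2 lay mostly among the controls. Replicate 10 also had the highest share of tested genes beyond the controls against the direction of the fold change, 6.70%, where replicate 1 had 5.48% and replicate 2 had 3.48%.

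Replicate 10 carried more RNA of other ovarian cell types than the other PFNA libraries, which is given here because it touches each result that follows. The 10 measured markers of stroma and surface epithelium summed to 1717 TPM in it, against 186 to 951 TPM in the controls and 367 to 864 TPM in replicates 3 to 9. In 6 of the 9 tested markers replicate 10 was beyond every control, and Upk3b, a surface epithelium marker, had 37.1 TPM against at most 6.29 in the controls. Immune markers summed to 212 TPM in replicate 10 and to 8.92 to 89.0 TPM in the controls. Their sum was also above every control in replicates 4, 5, 7, 8 and 9 (93.9 to 116 TPM), and within the controls in replicates 3 and 6 (45.004 and 51.9 TPM). Endothelial markers summed to 250.4 TPM in replicate 10 against 7.76 to 244 TPM in the controls. Replicates 1 and 2 were within the control range for the 3 sums. The part of these cells in the values of replicate 10, or of immune cells in those of replicates 4, 5, 7, 8 and 9, was not tested. Blood markers were near 0 throughout, with Alas2, the single one measured, at no more than 1.55 TPM. Granulosa and theca markers were present in every library: Inha had 11169 to 43694 TPM and Cyp17a1 had 65.4 to 355 TPM over the 21 libraries.

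**Figure D3:**
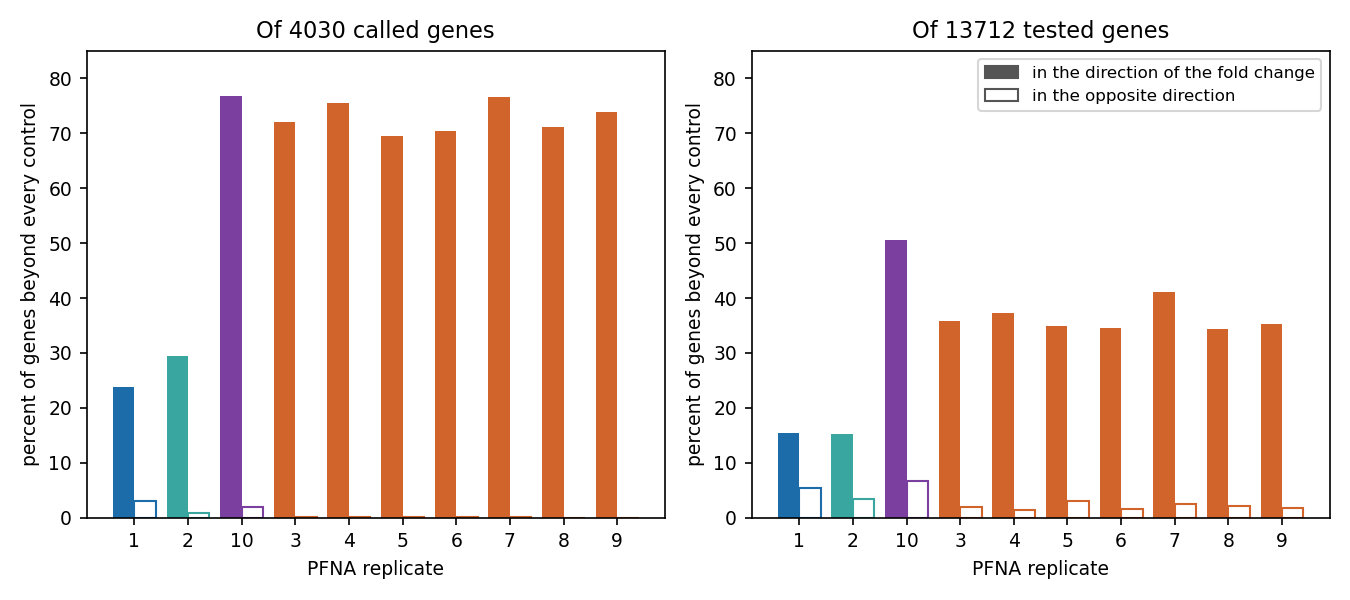
Percent of genes for which each PFNA library lay beyond all 11 controls, over the 4030 called genes (left) and the 13712 tested genes (right), with filled bars in the direction of the fold change and open bars in the opposite direction. Replicate 10 stands with replicates 3 to 9 and replicates 1 and 2 stand apart from them, at 23.9% and 29.5% of called genes.

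Genes were then sorted by which libraries were beyond the controls. In 175 called genes all 10 PFNA libraries were beyond (1.28% of genes tested), 67 higher (0.489%) and 108 lower (0.788%), so these changes were present with and without oocyte transcripts. In 577 genes (4.21%) replicates 3 to 9 and replicate 10 were beyond and replicates 1 and 2 were not, 239 higher (1.74%) and 338 lower (2.46%). In 70 genes (0.511%) only replicates 3 to 9 were beyond, 2 higher (0.0146%) and 68 lower (0.496%). Replicates 1, 2 and 10 were beyond together in 345 called genes (2.52%). No called gene had replicates 1, 2 and 10 beyond with none of replicates 3 to 9. A gene with 7 of 10 PFNA libraries among the controls is harder to call, but such calls did occur. With none of replicates 3 to 9 beyond, 56 called genes had none of replicates 1, 2 and 10 beyond. A further 31 had 1 of these 3 beyond and 2 had 2. Another 15 tested genes had all of replicates 1, 2 and 10 beyond and none of replicates 3 to 9, without a call. Replicates 3 to 9 were beyond together in 1342 called genes (9.79%). Of these 1342 genes replicate 10 was beyond in 87.0%, replicate 2 in 42.2% and replicate 1 in 24.8%. The genes with replicates 3 to 9 alone beyond were 5.22% of the 1342. That set is strict and held only 3 of the 8 genes that set the classes. For the others replicate 1 or 2 was also below every control. Its size therefore does not measure how many genes followed the classes. These sizes rest on single libraries, since each asks all members of a class to be beyond: without replicate 10 the set of replicates 3 to 9 alone held 627 genes and without replicate 2 it held 137, the set of all libraries held 473 without replicate 1, 295 without replicate 2 and 264 without control 8, and the set of replicates 3 to 9 and 10 held 882 without replicate 2.

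The 70 genes that were beyond the controls in replicates 3 to 9 alone consisted mainly of falls. They included Bmp15 and Ooep, which set the classes, and also genes that were not among the oocyte genes listed. Which cells the RNA of the latter came from was not tested. Ftdc had 9.79 to 18.0 TPM in the controls, 10.9, 12.5 and 30.3 TPM in replicates 1, 2 and 10, and was listed at 0 in all of replicates 3 to 9. Dppa3, a maternal factor that protects methylation in the egg, had 13.9, 10.1 and 26.01 TPM in replicates 1, 2 and 10 and 0 to 5.21 TPM in replicates 3 to 9 (controls 7.31 to 26.7). Both genes divided the libraries as Bmp15 and Ooep did, with replicates 1 and 2 within the controls, which the choice of this set requires.

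Mxd3 and Aspm, genes of dividing cells outside the proliferation list described below, were in this set. Of the 40 tested members of that list, 0 were in it. Mxd3, a MYC-network repressor of proliferating cells, had 6.86 to 22.1 TPM in the controls. It had 13.03, 10.8 and 7.72 TPM in replicates 1, 2 and 10 and 0.706 to 5.06 TPM in replicates 3 to 9, and fell by 1.54 on the log2 scale (SE 0.31, limma adjusted p = 0.000811). Aspm, a spindle pole protein, had 13.1, 8.53 and 7.11 TPM in replicates 1, 2 and 10 and 1.11 to 3.99 TPM in replicates 3 to 9, against 7.09 to 16.5 in the controls (log2 fold change -1.45, SE 0.26, limma adjusted p = 0.00023). Replicate 10 was within the controls for both, but at 7.72 and 7.11 TPM it lay next to their lowest values of 6.86 and 7.09 TPM. Kctd9, a potassium channel tetramerisation domain protein, was the only higher gene of the set that met the naming rule. It had 28.0 to 32.0 TPM in replicates 3 to 9, 22.0, 22.9 and 24.5 TPM in replicates 1, 2 and 10, and 16.6 to 27.1 TPM in the controls (log2 fold change 0.32, SE 0.08, limma adjusted p = 0.00483).

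Proliferation genes showed the most uniform response. All 40 members tested were called lower, where 16.1% of all genes were, with a median log2 fold change of -1.60, where all genes tested had a median of 0.02. In each of replicates 3 to 9 all 40 were below every control, and in replicate 10 it was 39. In replicate 2 it was 30 of 40 and in replicate 1 only 5 of 40, where 15.3% and 15.5% of all genes tested were beyond the controls. The mean change over the list (the list score, the mean over members of log2(TPM + 1) minus the control mean) was -2.13 to -1.56 in replicates 3 to 9 and -1.36 in replicate 10. Replicate 2 scored -0.60, below the controls (-0.36 to 0.28), and replicate 1 scored -0.19, within them. Low proliferation transcripts were thus found with abundant oocyte RNA in replicate 10 and in a milder form in replicate 2.

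Single members followed that order. Mki67, which encodes the Ki-67 antigen of dividing cells, had 39.4 to 108.6 TPM in the controls (median 71.0). It had 72.6 TPM in replicate 1, 51.2 in replicate 2, 19.02 in replicate 10 and 11.4 to 18.7 TPM in replicates 3 to 9 (log2 fold change -1.78, SE 0.27, limma adjusted p = 5.59e-05). Top2a, the topoisomerase of mitotic chromosomes, had 88.3, 70.0 and 17.7 TPM in replicates 1, 2 and 10 and 12.3 to 22.6 TPM in replicates 3 to 9, against 63.8 to 145.9 in the controls (log2 fold change -2.004, SE 0.30, limma adjusted p = 4.57e-05). For both genes replicates 1 and 2 were within the controls and the other 8 libraries were below them. Ccnd2, the cyclin of FSH-stimulated granulosa cells, had 120.1 TPM in replicate 1, within the controls (78.5 to 166), but 60.2 in replicate 2, 39.1 in replicate 10 and 18.6 to 27.6 TPM in replicates 3 to 9. Its log2 fold change was -1.998 (SE 0.25, limma adjusted p = 1.03e-05).

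A handful of division genes were low in all 10 libraries. Of the 40 members, 5 were beyond the controls in every PFNA library: Ccna2, Plk1, Birc5, Prc1 and Ube2c, which act in the S and M phases of the cell cycle. All 40 had replicates 3 to 9 beyond the controls. Of the 1342 called genes with replicates 3 to 9 beyond, 175 were beyond in all 10 libraries. The 5 of 40 were thus not a larger share than among those genes. Plk1 in replicate 1 was only just below the controls, at 42.473 TPM against a lowest control of 42.533 TPM. Spc24, a kinetochore protein outside the list, had 7.46 to 19.1 TPM in the controls. It had 5.81 and 5.399 TPM in replicates 1 and 2, 2.04 in replicate 10 and 0.776 to 3.03 TPM in replicates 3 to 9 (log2 fold change -2.17, SE 0.22, limma adjusted p = 1.47e-06). The oocyte-retaining replicates 1 and 2 were thus below the controls for this gene, and the other 8 libraries were lower still.

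**Figure D4:**
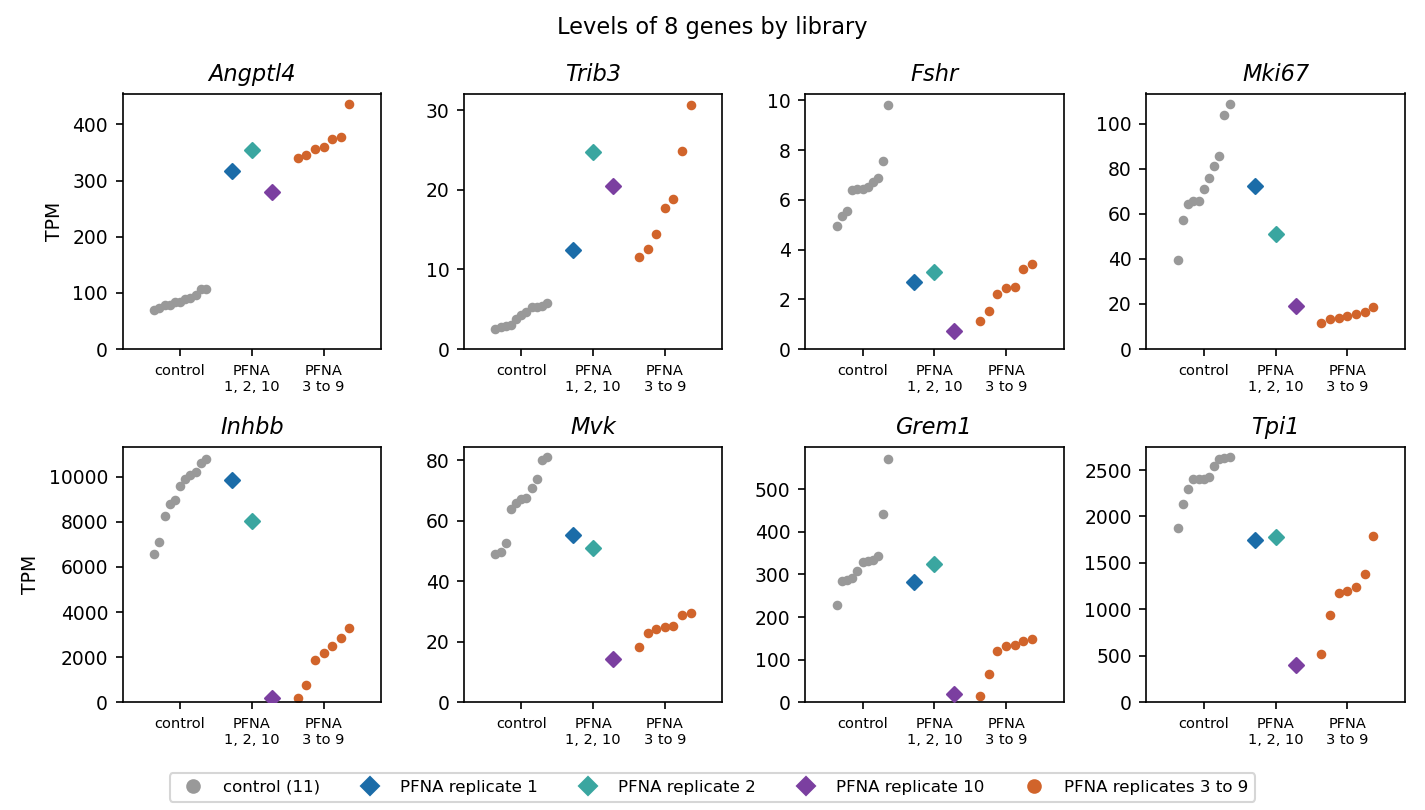
Levels of 8 genes in TPM, with 1 point per library (grey, 11 controls; diamonds, PFNA replicates 1, 2 and 10; orange, PFNA replicates 3 to 9). Angptl4, Trib3 and Fshr part all PFNA libraries from the controls, whereas for Mki67, Inhbb, Mvk and Grem1 replicates 1 and 2 lie among the controls and replicate 10 lies with or near replicates 3 to 9.

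Of 37 PPAR targets tested, 19 were called higher, 1 lower and 17 not, against 13.3% and 16.1% of all genes called higher and lower, with a median log2 fold change of 0.24. The list score was 0.26 in replicate 1, 0.27 in replicate 2, 0.59 in replicate 10 and 0.31 to 0.45 in replicates 3 to 9. All 10 scores were above the highest control, at 0.18. Of the 37 members, 16 were beyond the controls in replicate 1, 14 in replicate 2, 22 in replicate 10 and 18 to 25 in replicates 3 to 9, where the shares over all genes were 15.5%, 15.3%, 50.6% and 34.3% to 41.1%. In all, 6 members were above the controls in all 10 libraries (Angptl4, Hadha, Hadhb, Ech1, Pex11a and Klf10).

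Angptl4, a secreted inhibitor of lipoprotein lipase, had 69.0 to 107.7 TPM in the controls (median 83.9). It had 316 TPM in replicate 1, 354 in replicate 2, 280.0 in replicate 10 and 341 to 437 TPM in replicates 3 to 9. All 10 PFNA libraries were well above every control, and replicate 10 was the lowest of them (log2 fold change 2.02, SE 0.08, limma adjusted p = 3.93e-13). Hadha, the alpha subunit of the mitochondrial trifunctional protein of fatty acid oxidation, had 52.3 to 74.0 TPM in the controls. It had 87.9, 96.7 and 112 TPM in replicates 1, 2 and 10 and 103 to 124 TPM in replicates 3 to 9 (log2 fold change 0.71, SE 0.06, limma adjusted p = 1.06e-07). Plin1, a lipid droplet coat protein outside the list of PPAR targets, had 2.30 to 8.11 TPM in the controls. It had 9.86, 12.8 and 22.8 TPM in replicates 1, 2 and 10 and 9.29 to 21.3 TPM in replicates 3 to 9 (log2 fold change 1.53, SE 0.20, limma adjusted p = 1.72e-05).

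Other PPAR targets were less even between libraries. Cpt1a, which admits fatty acids to the mitochondrion, had 7.94 to 16.5 TPM in the controls. It had 18.8 TPM in replicate 1, 16.03 in replicate 2, 39.9 in replicate 10 and 21.1 to 29.2 TPM in replicates 3 to 9, so only replicate 2 was within the controls (log2 fold change 0.77, SE 0.13, limma adjusted p = 0.000151). Lpl, lipoprotein lipase, had 34.0 to 72.4 TPM in the controls, 37.9 and 47.7 TPM in replicates 1 and 2, 91.5 in replicate 10 and 78.2 to 98.2 TPM in replicates 3 to 9. Ucp2, a mitochondrial carrier, was the member called lower. It had 518 and 449 TPM in replicates 1 and 2, within the controls (448 to 585), and 254 TPM in replicate 10 and 253 to 371 TPM in replicates 3 to 9.

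The ATF4 stress response, which raises amino acid synthesis and transport when translation is restrained, was higher in replicates 1 and 2 than in 6 of the 7 oocyte-poor libraries. Of 31 genes tested, 13 were called higher and 2 lower, against 13.3% and 16.1% of all genes, with a median log2 fold change of 0.23. The list score was 0.47 in replicate 1, 0.74 in replicate 2, 0.31 in replicate 10 and 0.04 to 0.73 in replicates 3 to 9, with controls from -0.13 to 0.19. Replicate 5 had the 0.73, and replicates 7, 8 and 9 were within the controls. The score thus varied widely within the oocyte-poor class.

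Trib3, a pseudokinase induced by ATF4, had 2.49 to 5.81 TPM in the controls. It had 12.4 TPM in replicate 1, 24.7 in replicate 2, 20.5 in replicate 10 and 11.5 to 30.7 TPM in replicates 3 to 9, all above the controls (log2 fold change 1.92, SE 0.17, limma adjusted p = 3.17e-07). Asns, asparagine synthetase, had 21.6 and 27.6 TPM in replicates 1 and 2, 16.2 in replicate 10 and 12.1 to 22.9 TPM in replicates 3 to 9, against 7.33 to 11.5 in the controls. Chac1, which degrades glutathione, had 13.2 and 17.8 TPM in replicates 1 and 2, above every other library. It had 2.81 TPM in replicate 10, within the controls (0.857 to 4.33), and 3.08 to 8.88 TPM in replicates 3 to 9. Slc7a3, a cationic amino acid transporter, had 7.21 and 17.9 TPM in replicates 1 and 2 and 1.53 in replicate 10, with 1.27 to 15.6 TPM in replicates 3 to 9 and 0.478 to 2.46 in the controls.

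Genes that GDF9 and BMP15 are known to act on, with markers of cumulus cells, were examined because Gdf9 and Bmp15 transcripts were at most traces in the oocyte-poor libraries. Of 23 tested, 12 were called lower, 4 higher and 7 not, against 16.1% of all genes called lower and 13.3% higher, with a median log2 fold change of -0.55. The list score was -0.85 in replicate 10, in which Gdf9 and Bmp15 were above every control, and -0.85 to -0.02 in replicates 3 to 9. It was -0.29 in replicate 1 and -0.20 in replicate 2, with controls from -0.23 to 0.20. In 5 of replicates 3 to 9 (3, 4, 5, 6 and 9) the score was no lower than -0.24, and replicates 7 and 8 had -0.85 and -0.54. Replicate 10, with the highest levels of both ligands, and replicate 7, which held at most traces of them, thus had the lowest scores. Members moved both ways, so a score near the controls does not mean that members were unchanged. In replicates 3, 4, 5, 6 and 9, 11, 14, 9, 14 and 12 of the 23 were beyond the controls. In replicates 1 and 2 it was 8 and 10. Over all genes tested the shares were 34.6% to 37.3% in those 5 libraries and 15.5% and 15.3% in replicates 1 and 2.

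The paracrine and signalling members differed in direction. Grem1, a BMP antagonist of cumulus cells, had 228 to 572 TPM in the controls. It had 283 and 325 TPM in replicates 1 and 2, 19.3 in replicate 10 and 13.7 to 149 TPM in replicates 3 to 9, lower than every control in the latter 8 (log2 fold change -1.75, SE 0.43, limma adjusted p = 0.00417). Inhbb, the activin beta-B subunit, had 6575 to 10799 TPM in the controls. It had 9868 and 8040 TPM in replicates 1 and 2, 203 in replicate 10 and 209 to 3306 TPM in replicates 3 to 9, and the same 8 libraries were below every control (log2 fold change -2.39, SE 0.55, limma adjusted p = 0.00259). Smad7, an inhibitor of TGF-beta signalling, had 6.29 to 18.0 TPM in the controls, 17.8, 22.8 and 30.2 TPM in replicates 1, 2 and 10 and 15.1 to 32.5 TPM in replicates 3 to 9, and rose by 1.08 on the log2 scale (SE 0.15, limma adjusted p = 3.09e-05). Amh, the anti-Mullerian hormone of growing follicles, had 1.16 and 1.25 TPM in replicates 1 and 2, 27.3 in replicate 10 and 0 to 8.36 TPM in replicates 3 to 9, against a wide control range of 1.78 to 105 (log2 fold change -1.81, SE 0.63, limma adjusted p = 0.0334). The call of Amh was lost without control 8, 9, 10 or 12 or PFNA replicate 4, 5, 6 or 8 (limma adjusted p from 0.0503 to 0.0632), and with no filter on low values (limma adjusted p = 0.0503).

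The glycolytic members of this list were all called lower, 6 of 6 (Pfkp, Aldoa, Tpi1, Ldha, Pkm and Eno1), where 16.1% of all genes were. Tpi1, triosephosphate isomerase, had 1880 to 2639 TPM in the controls, 1743 and 1781 TPM in replicates 1 and 2, 397 in replicate 10 and 522 to 1793 TPM in replicates 3 to 9. All 10 PFNA libraries were below the controls (log2 fold change -1.12, SE 0.22, limma adjusted p = 0.000586). Ldha, lactate dehydrogenase A, had 671 and 678 TPM in replicates 1 and 2, at the lower edge of the controls (670.2 to 988), and 149 TPM in replicate 10 and 182 to 686 TPM in replicates 3 to 9. Replicates 10 and 7 were the lowest for both genes. Slc38a3, an amino acid transporter that the oocyte is known to promote in cumulus cells, went the other way. It had 22.6, 7.26 and 28.2 TPM in replicates 1, 2 and 10 and 13.8 to 32.4 TPM in replicates 3 to 9, against 2.72 to 9.96 in the controls (log2 fold change 1.62, SE 0.24, limma adjusted p = 4.18e-05).

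Cholesterol synthesis, which cumulus cells are known to carry out for the oocyte, was lowest in the library with the most oocyte RNA. Of 25 genes tested, 20 were called lower and none higher, against 16.1% and 13.3% of all genes, with a median log2 fold change of -0.42. The list score was -1.28 in replicate 10, -0.86 to -0.17 in replicates 3 to 9, and -0.22 in both replicates 1 and 2, just under the lowest control at -0.21. In replicate 10, 24 of 25 members were below every control, against 6 to 23 in replicates 3 to 9, 5 in replicate 1 and 3 in replicate 2. Over all genes the shares beyond the controls were 50.6%, 34.3% to 41.1%, 15.5% and 15.3%, so replicates 1 and 2 were near them. Mvk, mevalonate kinase, had 48.9 to 81.1 TPM in the controls. It had 55.2 and 50.8 TPM in replicates 1 and 2, 14.4 in replicate 10 and 18.4 to 29.4 TPM in replicates 3 to 9 (log2 fold change -1.22, SE 0.18, limma adjusted p = 4.73e-05). Acat2, acetyl-CoA acetyltransferase, was the member below the controls in all 10 libraries, at 87.6, 74.2 and 33.4 TPM in replicates 1, 2 and 10 and 52.4 to 92.7 TPM in replicates 3 to 9, against 98.1 to 195 in the controls. Rescaling without mitochondrial-like genes left 14 of the 25 called lower, where 1764 of all 14421 genes tested were. Leaving out replicate 10 left 15, where 2224 of all 13670 genes tested were.

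Granulosa genes were mixed. Of 20 tested, 8 were called lower and 3 higher, against 16.1% and 13.3% of all genes, with a median log2 fold change of -0.25. Fshr, the FSH receptor, had 4.94 to 9.82 TPM in the controls (median 6.43). It had 2.70 and 3.12 TPM in replicates 1 and 2, 0.736 in replicate 10 and 1.13 to 3.40 TPM in replicates 3 to 9. All 10 PFNA libraries were below the controls, and replicates 1 and 2 lay within the spread of replicates 3 to 9 (log2 fold change -1.24, SE 0.15, limma adjusted p = 7.44e-06). Fshr was thus low whether or not oocyte transcripts were kept.

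Inha and Cyp19a1 of granulosa hormone synthesis were called lower. Inha, the inhibin alpha subunit, had 26233 to 43694 TPM in the controls. It had 28785 and 32190 TPM in replicates 1 and 2, 11169 in replicate 10 and 15449 to 25635 TPM in replicates 3 to 9 (log2 fold change -0.74, SE 0.14, limma adjusted p = 0.000626). Cyp19a1, the aromatase of oestradiol synthesis, had 13.4 TPM in replicate 1, under the controls (17.2 to 30.6), 19.7 in replicate 2, 4.07 in replicate 10 and 4.29 to 17.8 TPM in replicates 3 to 9 (log2 fold change -0.98, SE 0.22, limma adjusted p = 0.00176). Foxl2, a factor of granulosa identity, did not pass the threshold over all 10 PFNA libraries (log2 fold change -0.22, SE 0.09, limma adjusted p = 0.0904). It had 868 to 1312 TPM in replicates 1, 2 and 10, 748 to 1223 TPM in replicates 3 to 9 and 905 to 1475 TPM in the controls. With replicates 1, 2 and 10 left out Foxl2 was called lower (log2 fold change -0.27, limma adjusted p = 0.0346). The same held with replicates 1 and 2 left out (log2 fold change -0.29, limma adjusted p = 0.0172). Leaving out PFNA replicate 1 alone or control 11 alone also gave the call (limma adjusted p = 0.0326 and 0.0451). Gja1, the connexin of granulosa gap junctions, had 2184 to 2744 TPM in replicates 1, 2 and 10 and 2690 to 3309 TPM in replicates 3 to 9, against 2133 to 3155 in the controls, and did not pass (log2 fold change 0.05, SE 0.08, limma adjusted p = 0.688).

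A signal sent towards the oocyte and the luteinising hormone receptor did not pass the threshold over all 10 PFNA libraries. Kitl, the KIT ligand of granulosa cells, had 2.17 and 6.25 TPM in replicates 1 and 2, 33.9 in replicate 10 and 8.07 to 53.6 TPM in replicates 3 to 9, with controls from 5.38 to 39.3 (log2 fold change 0.52, SE 0.45, limma adjusted p = 0.407). With replicates 1, 2 and 10 left out Kitl was called higher (log2 fold change 1.03, limma adjusted p = 0.0296), as it was with replicates 1 and 2 left out (log2 fold change 1.06, limma adjusted p = 0.0168). Lhcgr, the receptor of luteinising hormone, had 14.9, 52.6 and 27.0 TPM in replicates 1, 2 and 10 and 13.2 to 94.3 TPM in replicates 3 to 9, with controls from 26.5 to 119 (log2 fold change -0.41, SE 0.33, limma adjusted p = 0.365). Has2, the hyaluronan synthase of cumulus expansion, was low in all libraries, with at most 4.18 TPM, and fell by 0.55 on the log2 scale (SE 0.18, limma adjusted p = 0.0255). Its levels were 2.02, 0.908 and 0.396 TPM in replicates 1, 2 and 10 and 0.129 to 1.97 TPM in replicates 3 to 9.

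**Figure D5:**
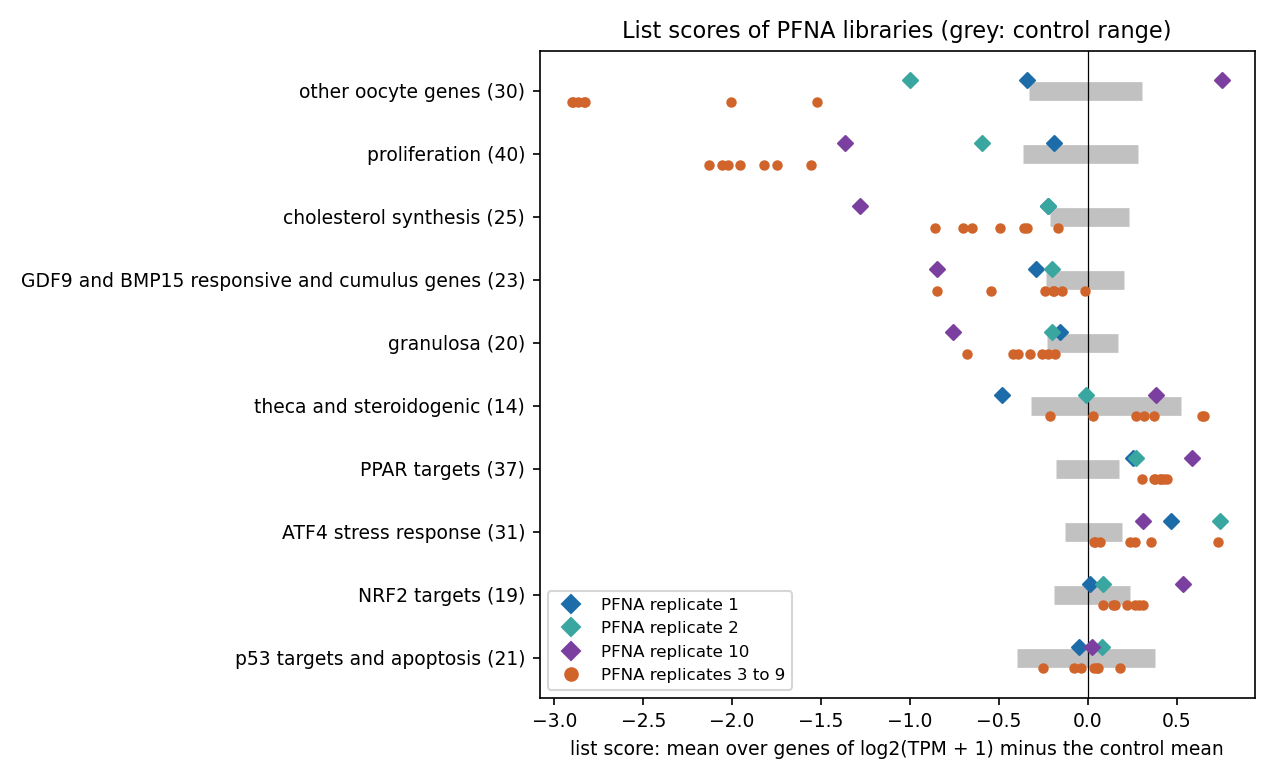
List scores of the PFNA libraries (mean over the tested members, their number in brackets, of log2(TPM + 1) minus the control mean) for 10 gene lists, with the control range as a grey bar. Proliferation and cholesterol scores of replicate 10 lie near or beyond those of replicates 3 to 9 while its oocyte score is the highest, at 0.76, and PPAR scores of all 10 libraries lie above the grey bar.

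The remaining lists gave smaller or less even changes. Of 19 NRF2 targets, which detoxify electrophiles, 8 were called higher and 3 lower, where 13.3% of all genes were called higher and 16.1% lower. Their score was 0.54 in replicate 10 and 0.29, 0.27 and 0.31 in replicates 5, 6 and 8, above the controls (-0.19 to 0.24). It was 0.01 and 0.09 in replicates 1 and 2 and 0.09 to 0.22 in replicates 3, 4, 7 and 9, within the controls. Gclc, of glutathione synthesis, had 34.6, 33.0 and 40.5 TPM in replicates 1, 2 and 10 and 23.6 to 47.1 TPM in replicates 3 to 9, against 15.7 to 24.9 in the controls (log2 fold change 0.60, SE 0.10, limma adjusted p = 0.000103). Of 21 p53 targets and apoptosis genes, 5 were called higher and 4 lower, against 13.3% and 16.1% of all genes, and all 10 scores were within the controls. Cdkn1a, the p21 inhibitor of cyclin-dependent kinases, had 23.9 and 50.8 TPM in replicates 1 and 2, 8.54 in replicate 10 and 10.3 to 29.9 TPM in replicates 3 to 9, against 22.9 to 84.9 in the controls (log2 fold change -1.08, SE 0.26, limma adjusted p = 0.00324). Of 14 theca and steroidogenic genes 2 were called higher and 1 lower, against the same shares. Among markers of other cell types, 2 of 5 immune markers were called higher (Cd68 and C1qa), and none of 5 endothelial or 9 stromal and surface markers was called. Cd68 and the stromal Col3a1 lay near the threshold (limma adjusted p = 0.0432 and 0.0515). Cd68 lost its call in many alternatives, such as no filter on low values (limma adjusted p = 0.0634). Col3a1 gained a call in several, such as the rescaling without mitochondrial-like genes (limma adjusted p = 0.0309). Without replicate 10 no immune marker was called, while all 40 proliferation genes were called lower, 20 PPAR targets higher and 12 ATF4 genes higher. Of all 13670 genes tested in that fit, 1456 were called higher and 2224 lower.

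Outside the lists, the genes that changed in all 10 libraries included developmental and signalling genes. Myf5, a myogenic transcription factor, had 1.74 to 5.86 TPM in the controls, 14.1, 13.1 and 36.5 TPM in replicates 1, 2 and 10 and 12.6 to 46.8 TPM in replicates 3 to 9 (log2 fold change 2.36, SE 0.24, limma adjusted p = 1.88e-06). Bmp2, a BMP ligand, had 68.3 to 228 TPM in the controls, 263, 244 and 496 TPM in replicates 1, 2 and 10 and 334 to 651 TPM in replicates 3 to 9 (log2 fold change 1.66, SE 0.21, limma adjusted p = 1.03e-05). Col11a1, a fibrillar collagen, had 18.2, 9.25 and 45.4 TPM in replicates 1, 2 and 10 and 10.7 to 36.0 TPM in replicates 3 to 9, against 1.92 to 5.34 in the controls (log2 fold change 2.11, SE 0.24, limma adjusted p = 5.81e-06). For Myf5 and Col11a1 replicate 1 reached the range of replicates 3 to 9, and for Bmp2 it did not.

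Falls in all 10 libraries reached larger sizes. Drd4, a dopamine receptor, had 14.1 to 42.6 TPM in the controls, 7.997, 2.19 and 4.20 TPM in replicates 1, 2 and 10 and 0.770 to 4.71 TPM in replicates 3 to 9 (log2 fold change -2.76, SE 0.23, limma adjusted p = 1.51e-07). Fgfbp3, which binds FGF ligands, had 80.9 TPM in replicate 1, 48.5 in replicate 2, 15.9 in replicate 10 and 15.1 to 32.1 TPM in replicates 3 to 9, against 110.3 to 219.9 in the controls (log2 fold change -2.32, SE 0.23, limma adjusted p = 1.25e-06). Ly6g6e had a log2 fold change of -3.07. In Drd4, Fgfbp3 and Ly6g6e replicate 1 was the PFNA library nearest the controls.

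Other genes were beyond the controls in replicates 3 to 9 and 10 but, by the choice of this set, not in replicates 1 and 2. Angpt2, a vascular growth factor antagonist of TIE2, had 12.98 to 46.7 TPM in the controls, 42.5 and 34.3 TPM in replicates 1 and 2, 91.0 in replicate 10 and 61.3 to 124 TPM in replicates 3 to 9 (log2 fold change 1.79, SE 0.25, limma adjusted p = 2.67e-05). Synb, an envelope-derived fusion protein, had 18.7 and 7.93 TPM in replicates 1 and 2, was listed at 0 in replicate 10 and had 0 to 2.75 TPM in replicates 3 to 9, against 4.70 to 32.4 in the controls (log2 fold change -3.04, SE 0.48, limma adjusted p = 7.91e-05). Zpld1, a zona pellucida-like domain protein that is not of the egg coat, had 22.1 and 7.35 TPM in replicates 1 and 2, 0.236 in replicate 10 and 0.023 to 0.703 TPM in replicates 3 to 9, against 5.72 to 19.7 in the controls (log2 fold change -2.60, SE 0.45, limma adjusted p = 0.000195). Zpld1 therefore did not follow the zona genes, since replicate 10 lacked it. Adra2a, Slfn4 and Paqr6 had 1.29, 0.035 and 0.395 TPM in replicate 10 and log2 fold changes of -2.02, -2.33 and -2.76.

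When replicates 3 to 9 were left out, the 3 oocyte-retaining libraries and the 11 controls gave 238 called genes of 13704 (1.74%), 101 higher and 137 lower. Among the 61 genes named by rule, 20 kept their call or its absence and their direction, 34 lost the call and 7 changed sign. Many of the 61 set the classes or were named for where replicates 1, 2 and 10 lay. The tally therefore partly follows from their choice and is a description. Angptl4, Trib3, Drd4 and Spc24 belong to the set with all 10 libraries beyond the controls. Inhbb belongs to the set in which replicates 1 and 2 were not beyond. The calls held for Angptl4 (log2 fold change 1.86, limma adjusted p = 6.18e-06), Trib3 (1.96, limma adjusted p = 0.00192), Fshr (-1.33, limma adjusted p = 0.0122), Drd4 (-2.38, limma adjusted p = 0.00259), Spc24 (-1.44, limma adjusted p = 0.0158) and Gclc (0.73, limma adjusted p = 0.00741). They were lost for Mki67 (-0.78, limma adjusted p = 0.225), Inhbb (-1.84, limma adjusted p = 0.231) and Mvk (-0.89, limma adjusted p = 0.127), in each of which replicate 10 was far from replicates 1 and 2. Other lost calls kept a fold close to that over 10 libraries, such as Cyp19a1 (-1.01, limma adjusted p = 0.0946), Cpt1a (0.71, limma adjusted p = 0.118) and Inha (-0.67, limma adjusted p = 0.146), so a lost call with 3 libraries does not show a smaller change. Of the lists, 8 of 40 proliferation genes were called lower, 6 of 30 ATF4 genes and 5 of 37 PPAR targets higher, and 1 of 25 cholesterol genes lower. With replicates 1, 2 and 10 left out instead, 4863 of 13685 genes were called (35.5%). The fits hold 3 and 7 PFNA libraries, so their counts were not compared.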

How the data were processed

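Whole-follicle RNA was sequenced for 11 control (DMSO) and 10 PFNA libraries of the maturation window. The values deposited by the authors are TPM per gene. Their table is named as raw counts, but 83.5% of its values are not whole and every library sums to 1000000, so depth is unknown and no count test was run. The submitters' processing notes name Partek, Bowtie2 and HISAT2; their roles, versions and the genome build are not given in the sources used here. Symbols matched GENCODE M21 (GRCm38) for 22182 of 22674 rows, and 24 symbols had been turned into dates. One column whose name departs from the others was taken as control 6. The series holds no maturation control numbered 4. The ovulation libraries were not analysed here, and 0 columns of unmapped samples were left aside.

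The 13712 genes averaging 1 TPM or more (8962 were below) were tested on log2(TPM + 1) with limma 3.58.1 (trended, robust) in R 4.3.3, with Benjamini-Hochberg adjustment over all of them; tables and figures used Python 3.11.15. The highest correlation between libraries of a group was 0.973, so no library was treated as a duplicate. The scripts were tested on simulated data. The members, classes and gene lists were chosen with earlier results of these data known. Genes named are those that set the classes, the member of smallest p in each list, for each set the 6 largest changes in each direction with a mean of at least 10 TPM in controls or PFNA libraries, and a panel of 16 follicle and PFNA genes, 61 in all, of which some are not reported here; other list members were chosen after their values were seen. Alternatives changed the pseudocount, filter, scaling, fit, control limit and libraries, or added a replicate block or the oocyte share as a covariate.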

Additional observations from a re-analysis of the deposited data

Results flagged for a closer look

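Among 73 results searched in the 10 PFNA libraries, 15 had a library that stood apart from the others by more than Dixon's 95% limit. Chance marks about 1 in 20, but many of these genes set the classes or were named for their pattern over these libraries, so the count is a description and is not read against that rate. In 9 of the 15 it was replicate 10, the library with the most oocyte, stromal and immune RNA. Its level was the highest for Bmp15 (110.8 TPM, next 30.3), Gdf9 (93.8, next 33.2), Zp2 (24.1, next 6.09), Ftdc (30.3, next 12.5), Nlrp5 (5.16, next 1.46) and Oosp1 (6.37, next 2.56). It was also the highest for Amh (27.3 TPM, next 8.36), Col3a1 (500.8, next 289) and the stroma and surface epithelium list score (2.53, next 0.36).

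Replicate 1 stood above the other PFNA libraries for Ccnd2 (120.1 TPM, next 60.2), Fgfbp3 (80.9, next 48.5), Zpld1 (22.1, next 7.35), Synb (18.7, next 7.93) and Nlrp4f (4.01, next 2.12). Replicate 2 stood above the others for Cdkn1a (50.8 TPM, next 29.9).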

How the results depend on the processing

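Counts of called genes followed the libraries used. Leaving out PFNA replicates 3 to 9 left 238 (101 higher, 137 lower), and the oocyte share as a covariate left 724 (303 higher, 421 lower); the share and the treatment overlap, so this fit does not separate them. Without the mitochondrial-like genes 2994 were higher, and 1 gene was beyond the controls in replicates 1, 2 and 10 alone; among all genes tested, called or not, 15 were. Against the second most extreme control, 397 genes were beyond in all 10 libraries. Leaving out each library in turn gave 3586 to 4588 called, 1456 to 2199 higher and 2008 to 2423 lower; 177 to 473 in all libraries; 564 to 882 in replicates 3 to 9 and 10; 63 to 627 in replicates 3 to 9 alone; and 0 to 2 in replicates 1, 2 and 10 alone.

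Signs turned without replicates 3 to 9 for Bmp15 (0.66), Ftdc (0.33), Zp2 (0.28), Nlrp5 (0.22), Gdf9 (0.10), Gja1 (-0.10) and Kitl (-0.69), and with the covariate for Bmp15 (0.48), Zp2 (0.26), Nlrp5 (0.26), Ftdc (0.19), Gja1 (-0.10) and Kitl (-0.36). Bmp15, Gdf9, Zp2 and Nlrp5 helped to set the classes, and replicates 3 to 9 were classed by low levels of such genes. The turns of these genes without replicates 3 to 9 therefore partly follow from that choice. The oocyte share used as the covariate was the summed level of the genes that set the classes. The turns of Bmp15, Zp2 and Nlrp5 with the covariate are thus partly built in and describe the fit only. For Ftdc, Gja1 and Kitl the cause was not tested.

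Replicate numbers did not pair the libraries: over 9 shared numbers the correlation of deviations ran from -0.14 to 0.17, 1 was over 0.1, and 0 libraries correlated best with their own number. The replicate block gave 2891 called genes, 1036 higher and 1855 lower, where the same libraries without it gave 3286, and Gja1 turned to -0.021 in both. The block also ended the calls of Nlrp5, Has2 (limma adjusted p = 0.0768) and Kctd9 (limma adjusted p = 0.0626), which the same libraries without it kept. TPM give no depth, so no counting interval or limit of detection could be set.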
